A study of Mus musculus with 9 samples.

Results

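miR-126a is the mouse microRNA of endothelial cells, the cells that line blood vessels and the sinusoids of the liver. Its 2 mature arms, miR-126a-3p and miR-126a-5p, were taken from the array by their exact names, 2 of the 1881 mouse miRNAs measured. miR-126a-3p was detected on all 9 arrays and could be tested, while mmu-miR-126a-5p was not well above background on any array.

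Liver miRNA was profiled in male C57BL/6J mice, an inbred wild-type strain, sampled at 20 weeks of age. Chow was the only food of the control group over 17 weeks. High fat diet mice received food with 45% of its energy as fat for the same 17 weeks, and saline into the stomach during the last 5 weeks. The metformin group shared that food and received metformin, a drug that lowers blood glucose, by the same route in the last 5 weeks, at 3 mg per kg per day as the labels give it. No label says whether the control mice were gavaged. Each of the 9 samples (3 per group, 1 one-colour Agilent array each) was a pool of liver from 4 mice, so the errors below are between pools.

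The gene for miR-126a lies inside Egfl7, a gene that encodes a protein secreted by endothelium, and on the same strand. In the RefSeq gene table (GRCm38.p6) a second miRNA gene, Mir126b, lies inside Egfl7 on the opposite strand. As background, miR-126-3p is known to repress Spred1 and Pik3r2, inhibitors of signalling downstream of vascular growth factor receptors, and so to favour vessel integrity, and miR-126-5p is known to repress the Notch ligand Dlk1 and to support endothelial proliferation. Hepatocytes carry little of either arm, so in whole liver the miRNA is read as a marker of endothelium, with blood platelets and blood-forming cells as other known sources. The array measured a whole tissue, in which fewer endothelial cells and less miR-126a per cell cannot be told apart.

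The arm that carried the signal is shown with its seed, the 7 bases at positions 2 to 8 that pair with target mRNAs, in capitals. The hairpin shows where that arm lies (capitals, bases 46 to 67 of 73). The third sequence, an arm of the miRNA on the opposite strand, is shown because it is the reverse complement of miR-126a-3p over 19 bases (capitals). All are from RefSeq (GRCm38.p6), in which 1 of the 2 arms matched by name.
mmu-miR-126a-3p: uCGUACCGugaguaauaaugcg
mir-126a hairpin: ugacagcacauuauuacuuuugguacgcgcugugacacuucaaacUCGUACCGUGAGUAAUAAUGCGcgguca
mmu-miR-126b-5p: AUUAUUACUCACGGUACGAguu

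Among 1679 mature mouse miRNA names in that table, 0 others shared the seed of miR-126a-3p. Its GC content was 45.5%, against a median of 52.2% over the table. In the structure that RNAfold predicted for the hairpin, 19 of the 22 bases of miR-126a-3p were paired. Both arms of miR-126b, whose 5p arm could pair with miR-126a-3p, were detected on 0 of the 9 arrays.

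Before any group comparison, the arrays themselves need a word. On 6 of the 9 arrays, strips of columns at the left or right edge lost signal from a share of the spots of bright probes, at least 10% by the rule used and far more on some arrays. These strips held 43.8%, 43.5% and 41.1% of the spots on control arrays 1, 2 and 3, 53.6%, 0% and 33.6% on high fat diet arrays 1, 2 and 3, and 0%, 31.1% and 0% on metformin arrays 1, 2 and 3. The strips thus touched 3 of the 3 control arrays, but 2 of 3 with the high fat diet and 1 of 3 with metformin. Values of miR-126a-3p are therefore given first with the strips left out, and with all spots beside them. No spot was saturated. miR-122-5p, the defining miRNA of hepatocytes, was detected on 9 of 9 arrays at an unscaled intensity between 18152 and 27903, so the defining marker of the labelled tissue was present.

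miR-126a-3p was read by 2 probes, A_54_P2285 and A_54_P2286, each printed as 15 spots per array. Of these 270 spots over the 9 arrays, 81 lay in strips and 188 entered the values, and all 188 were well above background. Within an array, the spots that were used differed by a coefficient of variation of 2.91% to 10.1%. A_54_P2286, the brighter probe by the rule of highest mean, represents the miRNA in the tests.

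Strips took unequal numbers of its spots. On high fat diet array 1, 12 of the 15 spots of A_54_P2286 lay in the strip and 3 were used, with intensities from 693 to 736. The 12 spots in the strip ranged from -4.12 to 555, with a median of 3.11. On control array 1, 10 of the 15 lay in the strip and 5 were used, between 426 and 536, against a median of 64.6 in the strip. On control array 2, 4 of the 15 lay in the strip, from -0.14 to 546 with a median of 112, against a median of 630 outside it. By the median the loss was smaller elsewhere: the strip spots of this probe had medians of 716 on high fat diet array 3, 468 on control array 3 and 357 on metformin array 2. Metformin arrays 1 and 3 and high fat diet array 2 kept all 15. A single strip spot of A_54_P2285 was far brighter than any other, at 9647 on high fat diet array 1 and at 3311 on control array 1.

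**Figure D1:**
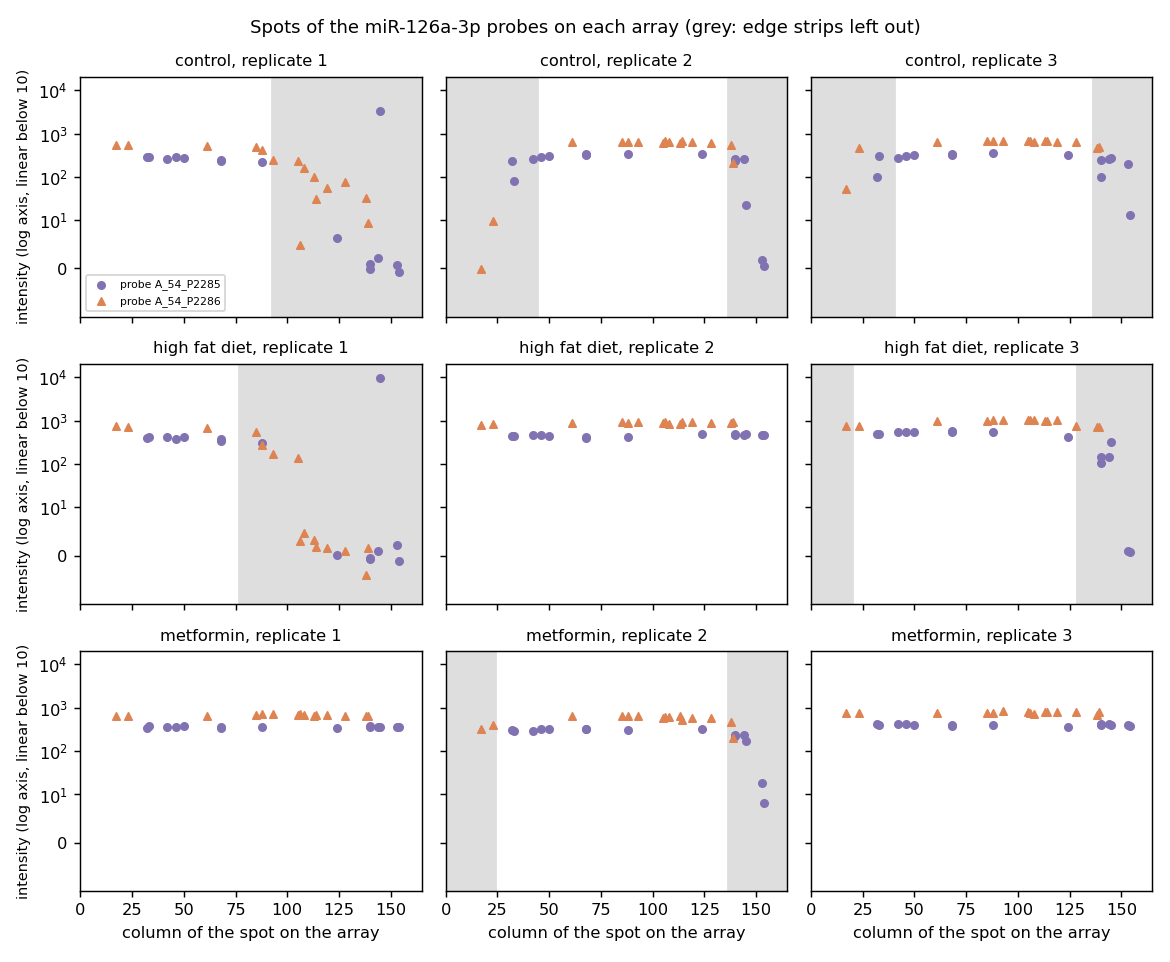
Background-subtracted intensity of each spot of the miR-126a-3p probes (vertical, log axis that is linear below 10) against the column of the array it was printed in (horizontal), for each of the 9 arrays. Grey areas are the strips left out; outside them the spots of a probe lie close together, while inside them some keep most of their signal, others fall towards 0, above all on control array 1 and high fat diet array 1, and 1 spot each on these arrays reads 3311 and 9647.

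The unscaled medians of A_54_P2286 were 505, 630 and 659 on control arrays 1 to 3, 699, 890 and 1013 on high fat diet arrays 1 to 3, and 677, 623 and 776 on metformin arrays 1 to 3. All 3 high fat diet arrays were above all 3 control arrays before any scaling. Much of this order was shared by the rest of the array: the 75th percentile over detected probes, by which each array was scaled, was 193, 221 and 225 on the control arrays. In the high fat diet group it was 221, 279 and 323, and in the metformin group 252, 231 and 237.

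After scaling to that percentile, on the log2 scale, miR-126a-3p stood at 1.39, 1.51 and 1.55 on control arrays 1 to 3, a mean of 1.48 ± 0.08 (SD, n = 3). It stood at 1.66, 1.67 and 1.65 on high fat diet arrays 1 to 3, a mean of 1.66 ± 0.01 (SD, n = 3). On metformin arrays 1 to 3 it stood at 1.43, 1.43 and 1.71, a mean of 1.52 ± 0.16 (SD, n = 3). The high fat diet arrays lay closest together and above every control array, without overlap. The metformin arrays lay furthest apart, with arrays 1 and 2 within the range of the controls and array 3 the highest of all 9.

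With all spots the picture was another. The log2 levels were 0.49, 1.63 and 1.22 on control arrays 1 to 3 (mean 1.11 ± 0.58, SD, n = 3). They were -0.14, 0.97 and 1.25 on high fat diet arrays 1 to 3 (mean 0.69 ± 0.74, SD, n = 3), and on array 1 the probe no longer counted as detected. They were 0.93, 1.09 and 1.18 on metformin arrays 1 to 3 (mean 1.06 ± 0.12, SD, n = 3). The lowest values, on high fat diet array 1 and control array 1, belonged to the arrays where strips held most of the probe's spots, and all 3 groups overlapped.

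**Figure D2:**
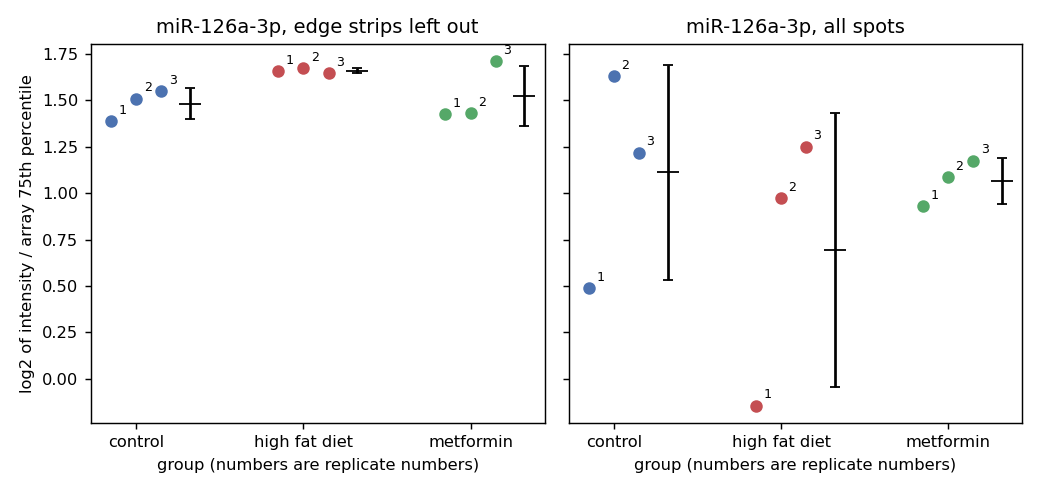
Level of miR-126a-3p (log2 of intensity over the array's 75th percentile) on each of the 9 arrays by group, with the edge strips left out (left) and with all spots (right); points are arrays with their replicate numbers, bars are the mean and SD of 3. With the strips left out the high fat diet arrays sit between 1.65 and 1.67, above the control arrays at 1.39 to 1.55; with all spots the control and high fat diet arrays spread from -0.14 to 1.63.

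The first comparison asks whether miR-126a-3p differed between fatty diet and chow. With the strips left out it was 0.18 higher on the log2 scale in the high fat diet group (SE 0.10, 95% confidence interval -0.042 to 0.40), a ratio of 1.13 (0.971 to 1.32). It did not pass the test (limma, adjusted p = 0.214 by Benjamini-Hochberg over 143 miRNAs), although all 3 high fat diet pools were above all 3 control pools. The exact permutation test of this difference (two-sided) gave p = 0.1, the smallest that 3 against 3 arrays allow. Of the 143 miRNAs tested, 14.0% passed limma's threshold of 0.05 in this comparison (4.20% with the diet higher), and 37.1% had groups whose arrays did not overlap, 21.7% with the high fat diet arrays higher. A gap without overlap was therefore common here. The median difference of all tested miRNAs was 0.027, and relative to it miR-126a-3p was 0.15 higher, 40th of 143 from the highest difference down.

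The other probe, A_54_P2285, gave log2 levels of 0.47, 0.54 and 0.50 on control arrays 1 to 3, 0.85, 0.73 and 0.76 on high fat diet arrays 1 to 3 and 0.53, 0.47 and 0.77 on metformin arrays 1 to 3. Its group means were 0.50 ± 0.04, 0.78 ± 0.06 and 0.59 ± 0.16 (SD, n = 3 each), a difference of 0.28 between high fat diet and control. Both probes placed every high fat diet array above every control array and metformin array 3 above metformin arrays 1 and 2. The probes read the same RNA on the same arrays and are not replicates.

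With all spots the direction of the diet difference turned for A_54_P2286 but not for A_54_P2285, which gave 0.033. By A_54_P2286 miR-126a-3p was then 0.42 lower in the high fat diet group (difference -0.42, SE 0.36, interval -1.21 to 0.37; limma, adjusted p = 0.518), when 6.47% of 139 miRNAs passed. With 1 array left out at a time, the all-spots difference ran from -0.70 to 0.076. It was positive only without high fat diet array 1, and it was -0.64 without control array 1. The deposited value table, which rests on all spots, gave -0.12. A lower level with all spots also held for the miRNAs as a whole, whose median difference was -0.22.

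The second comparison asks whether metformin moved miR-126a-3p within the fatty diet. With the strips left out the difference, metformin minus high fat diet, was -0.14 (SE 0.10, interval -0.36 to 0.083), a ratio of 0.910 (0.781 to 1.06). It did not pass (limma, adjusted p = 0.629), where 1.40% of 143 miRNAs did, and the groups overlapped, as metformin array 3 was above the 3 high fat diet arrays. The exact permutation test gave p = 0.4 (two-sided). The median miRNA differed by -0.059, so that -0.077 remained for miR-126a-3p. A_54_P2285 gave -0.19. With all spots the sign turned to 0.37 (SE 0.36; limma, adjusted p = 0.723), when 0% of miRNAs passed by limma and 10.8% had an unadjusted p under 0.05.

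Between metformin with fatty diet and chow, the difference was 0.042 (SE 0.10, interval -0.18 to 0.26), a ratio of 1.03 (0.884 to 1.20). It did not pass (limma, adjusted p = 0.843), where 1.40% of 143 miRNAs passed, and the exact permutation test gave p = 0.8 (two-sided). The levels of the groups crossed in either order, and leaving out metformin array 3 turned the difference to -0.052. With all spots it was -0.048 (limma, adjusted p = 0.987), when 0% of 139 miRNAs passed and 10.8% had an unadjusted p under 0.05. The high fat diet, metformin and control groups thus stood in this order by their means with the strips left out, but neither pair of neighbours differed beyond its spread by limma's adjusted p. The 3 differences share arrays and are not independent of each other.

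**Figure D3:**
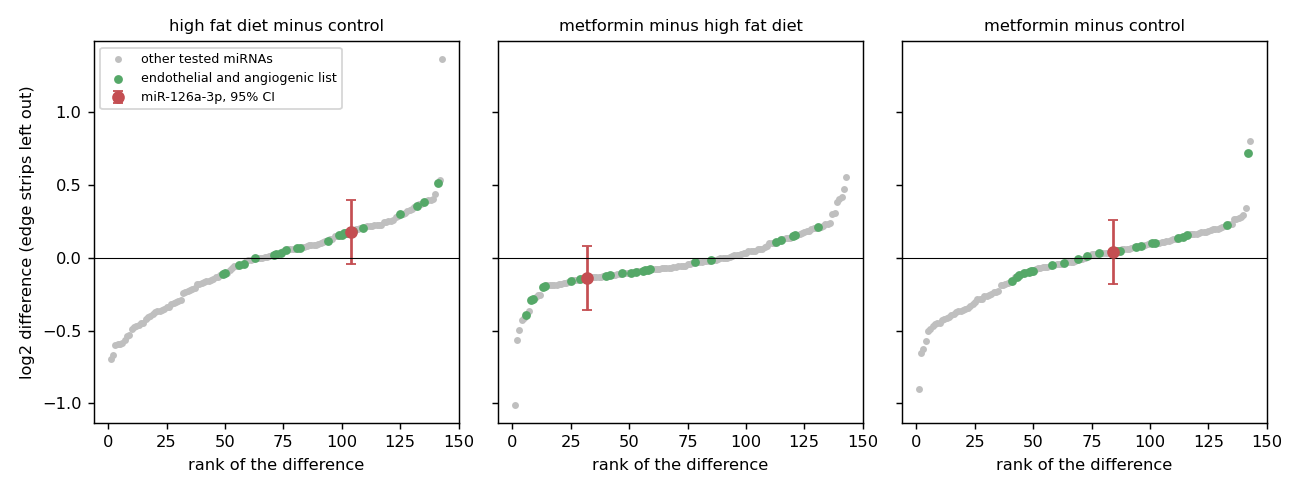
Log2 differences of the 143 tested miRNAs in each of the 3 comparisons (vertical), ordered by size (horizontal), with the edge strips left out; grey points are single miRNAs, green points the endothelial and angiogenic list, and the red point miR-126a-3p with its 95% confidence interval. The red point lies in the body of the distribution in all 3 panels, at 0.18, -0.14 and 0.042, and its interval crosses 0 each time.

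The position of the arrays on the slide followed the groups. The file headers place 8 arrays on slide 1, with the 3 high fat diet arrays and metformin array 1 in row 1 and control arrays 1 and 2 with metformin arrays 2 and 3 in row 2. Control array 3 was alone in row 1 of slide 2. Within row 1, metformin array 1 was 0.23 below the mean of the high fat diet arrays (difference -0.23). Within row 2, metformin arrays 2 and 3 were 0.12 above control arrays 1 and 2. High fat diet and control arrays shared no row of a slide, so that their difference with the row as a block (0.35; limma, adjusted p = 0.300) rests on the metformin arrays alone. With the slide as a block, which drops control array 3, it was 0.21 (adjusted p = 0.163).

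As a measure, miR-126a-3p was steadier than most miRNAs once the strips were left out. Its pooled SD within groups was 0.11 on the log2 scale, against a median of 0.15 over the 143 tested miRNAs, of which 38 had a smaller SD. From the lowest to the highest of the 9 arrays it spanned 0.32, against a median span of 0.56, and 20 miRNAs spanned less. With all spots its SD was 0.55, against a median of 0.25, and 131 of 139 miRNAs had a smaller one.

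The 5p arm gave no level in any group. miR-126a-5p was also read by 2 probes, A_54_P1035 and A_54_P4367, with 270 spots in all. Of the 198 spots outside the strips, 1 was well above background, on control array 1. Probe medians lay between 0.159 and 2.96 intensity units over the 9 arrays, while the dimmest probe that counted as detected read between 9.35 and 15.1 on the same arrays. Every array thus gave only an upper bound, in both readings, and the scanner software also called this arm undetected on all 9. No fold change or arm ratio is given. For comparison within the software's own totals, miR-126a-3p was called detected on all 9 arrays, with totals of 80.7, 179 and 187 on control arrays 1 to 3, 92.6, 284 and 271 on high fat diet arrays 1 to 3 and 220, 180 and 250 on metformin arrays 1 to 3. The software's totals use all spots, and their lowest values were again on control array 1 and high fat diet array 1.

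The miRNAs whose levels ran most like miR-126a-3p were found among 117 others detected on all 9 arrays, by Pearson's r over the 9 arrays with the strips left out. The points share the array, its scaling and the group, and the values are a description. miR-15b-5p came first at r = 0.93, with 0.89 once each group's mean was removed. It was followed by miR-25-3p at 0.88, let-7i-5p at 0.87, miR-27b-3p at 0.86 and miR-151-5p at 0.84, with 0.85, 0.94, 0.80 and 0.94 once group means were removed. The median over the 117 miRNAs was 0.35. At the other end stood miR-5126 at -0.77, miR-8101 at -0.81 and miR-3963 at -0.83.

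These correlations changed with the strips. With all spots miR-15b-5p kept r = 0.86, miR-151-5p 0.71 and miR-25-3p 0.66, but miR-27b-3p had 0.15 and let-7i-5p -0.17. The 3 miRNAs at the negative end turned positive, with 0.59 for miR-5126, 0.28 for miR-8101 and 0.32 for miR-3963.

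**Figure D4:**
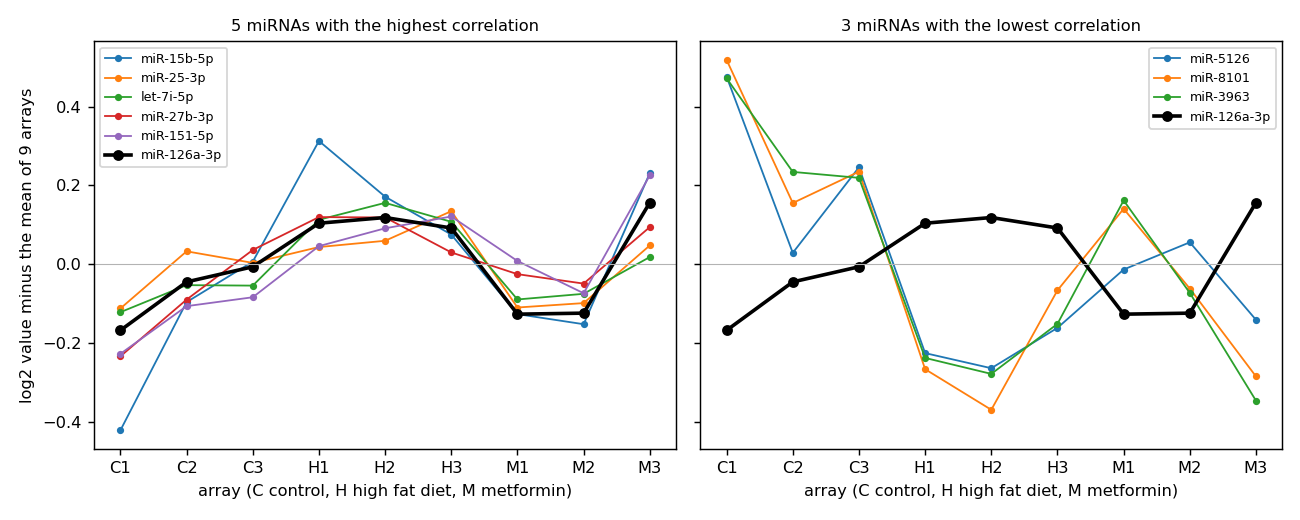
Log2 level minus the mean of the 9 arrays (vertical) for miR-126a-3p (black) and the 5 miRNAs with the highest (left) and 3 with the lowest (right) correlation with it, on each array (horizontal), with the edge strips left out; lines join the arrays of 1 miRNA, and arrays have no order within a group. The left-hand miRNAs are below their mean on control array 1 and above it on metformin array 3 together with miR-126a-3p (r of 0.84 to 0.93), and the right-hand ones run opposite to it (r of -0.77 to -0.83).

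Other miRNAs of endothelium and vessel growth were read as a list of 34, members left out. It holds the miR-17-92 and miR-23-27-24 clusters, miR-10a and miR-10b, miR-221 and miR-222, hypoxia-induced miR-210 and others, many of which other liver cells also express. Of the 34, 23 could be tested and 11 were detected on no array, among them both arms of miR-126b. In none of the 3 comparisons did a listed miRNA pass limma's test in either direction, 0 of 23 each time. In the order of the comparisons above, 14.0%, 1.40% and 1.40% of all 143 passed. Of the list 4, 2 and 1 had an unadjusted p under 0.05, where 35.7%, 9.09% and 21.0% of all 143 had one. Between high fat diet and control 18 of the 23 differences were positive (78 of all 143), with a median of 0.12 (0.027 over all). Of these 18, miR-19a-3p, miR-146a-5p and miR-210-3p (0.056, 0.15 and 0.51) were detected on 2 of the 3 control arrays. They were tested only because of the other groups, so the filter itself favours a lower control level in them. miR-221-3p was tested only because of the metformin group. Between metformin and high fat diet 5 of 23 were positive (53 of 143), with a median of -0.098 (-0.059 over all), and between metformin and control 13 of 23 (71 of 143), with a median of 0.030 (-0.0037 over all). With all spots the medians of the list were -0.17, 0.21 and 0.075 in these comparisons, of all miRNAs -0.22, 0.16 and 0.019.

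The first 3 tested names of that list serve as examples. miR-10a-5p, from a Hox cluster, was -0.046 apart between high fat diet and control (limma, adjusted p = 0.735). miR-15b-5p, a cell cycle regulator with the seed of miR-16, was 0.36 apart (adjusted p = 0.104). Its high fat diet arrays lay above its control arrays, as for 21.7% of tested miRNAs. Without control array 3 it was 0.45 apart and passed (adjusted p = 0.0494), where 40 miRNAs passed against 20 in the main reading. It passed in 2 of 28 alternatives, but it was -0.13 with the mean and -0.37 with the median of all spots. miR-16-5p, its relative, was 0.032 apart (adjusted p = 0.844). Between metformin and high fat diet the 3 differed by 0.12, -0.20 and -0.083, with adjusted p of 0.620, 0.620 and 0.756. The summed scaled level of the 23 ran from 8.67 to 9.69 in the control group, 9.54 to 10.1 in the high fat diet group and 9.26 to 10.1 in the metformin group, so that all 3 groups overlapped.

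Markers of the other cells of the liver were read beside it, since their share could move a vessel miRNA in whole tissue. Of 8 hepatocyte miRNAs 5 could be tested and 0 passed in any comparison by limma, where 14.0%, 1.40% and 1.40% of all 143 passed. An unadjusted p under 0.05 was reached by 1, 0 and 1 of them, against the same 35.7%, 9.09% and 21.0% of all. Between high fat diet and control miR-122-5p was -0.10 apart (limma, adjusted p = 0.422), miR-122-3p -0.0045 (adjusted p = 0.992) and miR-192-5p, of the liver and gut, 0.082 (adjusted p = 0.631). With all spots these differences were -0.58, -0.43 and -0.24 (limma, adjusted p = 0.0682, 0.374 and 0.412), against a median of -0.22 over all miRNAs. The remaining pair, with the strips left out, was miR-194-5p at 0.22 (adjusted p = 0.216) and miR-148a-3p at 0.37 (adjusted p = 0.0624). With all spots this pair had -0.094 and 0.095 (limma, adjusted p = 0.804 and 0.765). Outside the strips miR-148a-3p had all high fat diet arrays above all control arrays, as for 21.7% of tested miRNAs. It passed the threshold in 4 of 28 alternatives. Among them was the fit without control array 3 (0.48, adjusted p = 0.0214), where 40 miRNAs passed against 20 in the main reading. The summed level of the 5, most of it miR-122-5p, was 104 to 117 in the control group, 98.1 to 109.7 in the high fat diet group and 107 to 120.3 in the metformin group. Control and high fat diet overlapped in it.

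Of 8 leukocyte and platelet miRNAs 4 could be tested. 1 of them is miR-342-3p, which lies in an intron of Evl. It rose in the high fat diet group over control by 0.39 (SE 0.09, limma, adjusted p = 0.0174), where 14.0% of all 143 miRNAs passed (4.20% with the diet higher). It kept the call in 19 of 28 alternatives, lost it without high fat diet array 1 (adjusted p = 0.0677) and in the fit with slide rows as a block (0.62, adjusted p = 0.0814), and had 0.26 with all spots (adjusted p = 0.363). miR-142a-3p, the defining miRNA of blood cells, was detected on 8 of 9 arrays, with -0.13 (adjusted p = 0.531), and miR-223-3p, of granulocytes and platelets, had 0.087 (adjusted p = 0.628). The summed level of the 4 was 0.488 to 0.577 in the control group, 0.568 to 0.634 in the high fat diet group and 0.502 to 0.562 in the metformin group. However, miR-142a-3p and miR-146a-5p were detected on 2 control arrays but on all 3 arrays of each other group. They entered the sum only through those other groups, so the filter favours a lower sum in the control group. In the metformin group 0 of the 4 passed against either other group, where 1.40% of all 143 passed each time. At an unadjusted p under 0.05 there were 0 (high fat diet) and 1 (control) of the 4, against 9.09% and 21.0% of all.

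Of the stellate and smooth muscle list 9 names were on the array and 3 could be tested, while miR-143 and miR-145a were detected on no array. miR-199a-3p is typical of stellate and other mesenchymal cells and identical in sequence to miR-199b-3p. It rose by 0.31 in the high fat diet group over control (SE 0.08, limma, adjusted p = 0.0301), where 14.0% of all 143 miRNAs passed (4.20% with the diet higher). It kept the call in 15 of 28 alternatives and lost it without high fat diet array 1, 2 or 3 (adjusted p = 0.0677, 0.0866 and 0.0864) and in the fit with slide rows as a block (0.26, adjusted p = 0.350), and it had 0.57 with all spots (adjusted p = 0.158). The summed level of the 3, most of it miR-199a-3p, was 0.305 to 0.315 in the control group, 0.360 to 0.426 in the high fat diet group and 0.334 to 0.348 in the metformin group. However, miR-199a-5p and miR-199b-5p were detected on 2 of 3 control arrays but on all 3 arrays of each other group. They entered the sum only through those other groups, so the filter itself favours a lower sum in the control group. The sum, like miR-126a-3p, was higher on all 3 high fat diet arrays than on all 3 control arrays, as were 21.7% of tested miRNAs. Of the sum's members, miR-199b-5p overlapped between these groups. The metformin arrays, with array 3 (the highest for miR-126a-3p) among them, had sums below every high fat diet array, as for 11.9% of tested miRNAs. The part of these markers in the difference of miR-126a-3p, like that of the leukocyte list, was not tested.

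Of the erythroid list 4 names were on the array and 1 could be tested. miR-451a, the red cell miRNA, was 0.11 apart between high fat diet and control (limma, adjusted p = 0.807). Between metformin and high fat diet it was -1.01 apart (adjusted p = 0.158), with all 3 metformin arrays below all 3 high fat diet arrays, as for 11.9% of tested miRNAs. It passed in 3 of 28 alternatives, without control array 1 (adjusted p = 0.0230) or control array 2 (adjusted p = 0.0134), and with only the metformin and high fat diet arrays in the fit (adjusted p = 0.000251). In these fits 3, 3 and 5 miRNAs passed, against 2 in the main reading. Control arrays enter the difference of miR-451a through the shared spread and the choice of probes for scaling. None of 5 biliary epithelial miRNAs could be tested, and 4 of them were detected on no array.

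**Figure D5:**
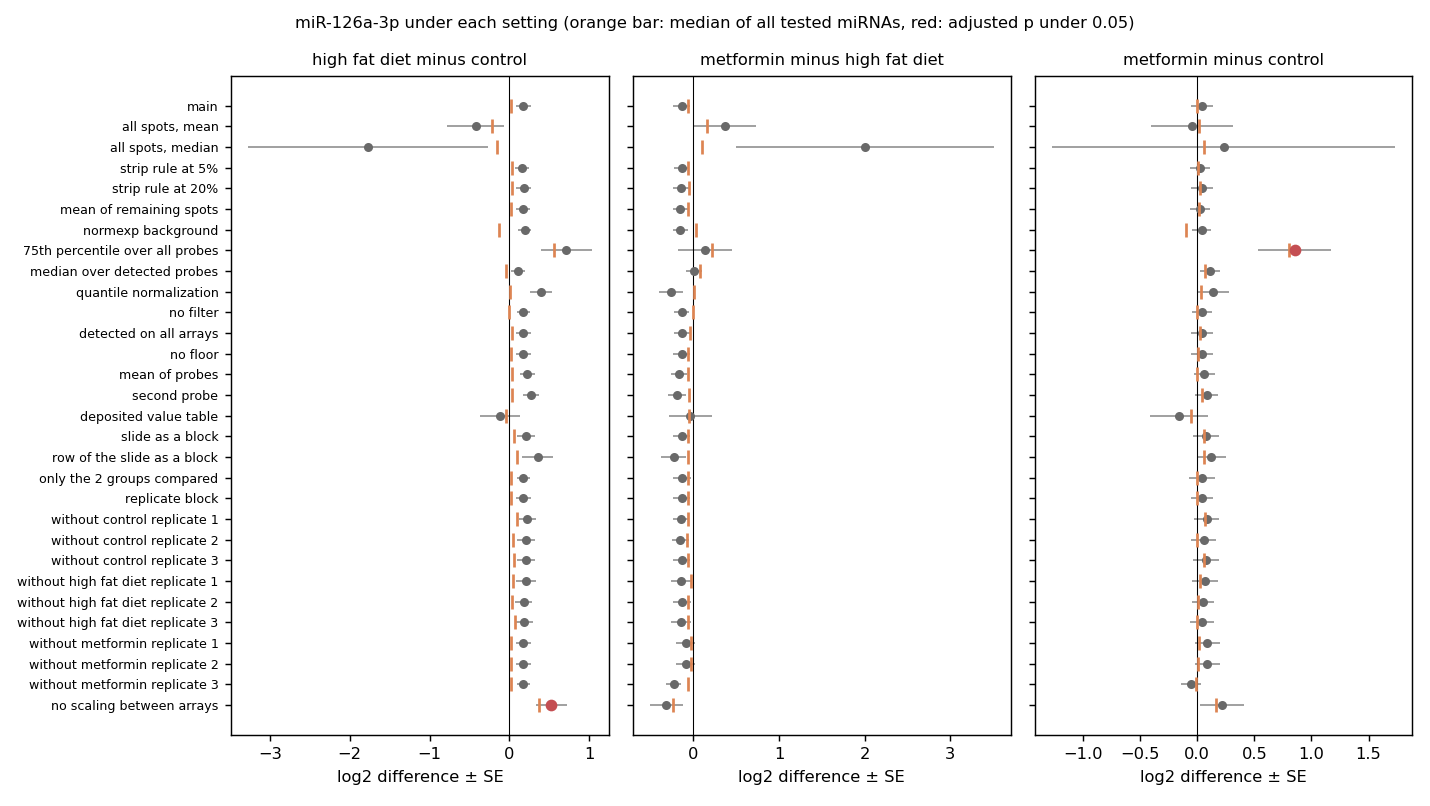
Difference of miR-126a-3p (log2, ± SE, horizontal) in the 3 comparisons under the main processing and the alternatives (vertical). The single-array and block alternatives with all spots are not drawn. The short orange bar is the median difference of all tested miRNAs under the same setting, and red marks an adjusted p under 0.05. Between high fat diet and control the difference is 0.18 in the main reading and turns to -0.42 and -1.77 with the mean and median of all spots. In that comparison the red point is at 0.53, without scaling, with its orange bar at 0.37. Between metformin and control the red point is at 0.85, with the percentile over all probes, and its orange bar is at 0.80.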

How the data were processed

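Per the file headers, the deposited scanner output gives the intensity of each spot, background-subtracted by version 11.5.1.1 of Agilent Feature Extraction and unscaled between arrays; the submitters' processing notes name version 10.7. The value table that the authors deposited holds log2 values; checked against log2 total signals of that software, it differed by a constant for each array (-2.35 to -0.71) of unstated origin, to within 0.001 for all but 0 to 6 miRNAs on an array.

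Strips were found from bright probes (80th percentile of their spots over 100), in steps of 4 columns, while at least 10% of such spots were under 50% of that level. A probe's value is the median over spots left that bear no non-uniformity mark (at least 3 per array; 425 of 4415 probes dropped), scaled to the 75th percentile, on that array, of 187 probes detected on all 9 arrays, floored at 0.0406 of it (the 1st percentile of detected values) and put on the log2 scale. Detected means more than a share of 0.5 of spots well above background. The probe with the highest mean stood for a miRNA, and miRNAs detected on all 3 arrays of a group were tested (143). With all spots, the mean of unmarked spots was scaled over 124 probes (139 tested). limma 3.58.1 (R 4.3.3) fitted 3 group means with 1 shared spread, two-sided, p-values adjusted by Benjamini-Hochberg over the miRNAs tested. It was tested on simulated data with changes of 1 on the log2 scale, larger than the main differences of miR-126a-3p. The strip finder was tested on planted strips with sharp edges and no signal, unlike the partial loss on some arrays. RNAfold was version 2.7.2. The number of arrays limits the precision: the median SE of a log2 difference was 0.12 with strips left out and 0.20 with all spots.

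The members, the lists and the choice of reading were made with earlier results of these data known. Besides the members, the 5 miRNAs most and 3 least correlated with miR-126a-3p are named, and of each list those that passed or, where none did, up to 3 tested ones in list order; miR-142a-3p, miR-223-3p, miR-194-5p, miR-148a-3p and miR-199b-5p were named after their values were seen. The arm difference and all tests of miR-126a-5p were not run, because that arm was below background. The files' build (mm9) differs from that of the RefSeq tables, so no coordinates are given. The deviations of same-numbered arrays correlated with either sign (r from -0.24 to 0.43), and replicate numbers were not treated as pairs in the main fit.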

Additional observations from a re-analysis of the deposited data

How the results depend on the processing

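Under 41 alternatives, miR-126a-3p in high fat diet minus control was positive in 27, negative in 14 and past the threshold in 1. Outside the strips it was 0.18; all spots gave -0.42 (mean), -1.77 (median), -0.37 with the slide as a block, -0.16 with the row as a block and -0.42 with the replicate block, and -0.12 in the deposited value table. The second probe kept a positive sign, at 0.28 outside the strips and 0.033 with all spots. Outside the strips, scaling moved the value to 0.40 (quantile; 0.40 relative to the median of all), 0.72 (percentile over all probes; 0.16), and 0.11 (median over detected probes; 0.15), and the row of the slide as a block to 0.35, none past the threshold. Leaving out 1 array gave 0.18 to 0.23 without strips (adjusted p 0.153 to 0.303) and -0.70 to 0.076 with all spots. Without scaling between arrays it was 0.53 (adjusted p = 0.0219), when the median of all miRNAs was 0.37, so 0.16 relative to it. Metformin minus high fat diet was -0.14, against 0.37 (mean) and 2.00 (median) with all spots, 0.37 with the slide, 0.24 with the row and 0.37 with the replicate number as a block, 0.14 with the percentile over all probes and 0.0046 with the median over detected probes; leaving out 1 array gave -0.23 to -0.089, and -0.087 to 0.65 with all spots. Metformin minus control was 0.042, against -0.048 with all spots (also with the replicate block), -0.16 in the value table and 0.85 with the percentile over all probes (adjusted p = 0.0179; 0.049 relative to the median of all, 0.80); leaving out 1 array gave -0.052 to 0.089, and -0.43 to 0.17 with all spots. The causes were not tested. With strips left out, the replicate block gave 0.18, -0.14 and 0.042 (limma, adjusted p = 0.203, 0.616 and 0.836) and changed no call of miR-126a-3p. The main fit did not treat the numbers as pairs. The count of called miRNAs ranged over the alternatives from 0 to 53 (main 20) in high fat diet minus control, 0 to 5 (main 2) in metformin minus high fat diet and 0 to 98 (main 2) in metformin minus control; leaving out 1 array with strips left out gave 6 to 40, 0 to 3 and 1 to 8. miR-126a-5p had no alternative to run, as it was below background. The normexp alternative used the median spot signal. No scaling, and the single-array and block alternatives with all spots, were added after seeing the data. With 3 pools per group and a median SE of 0.12, a difference of 0.18 could not be told from 0.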
